A study of Mus musculus with 6 samples.

Results

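Chromatin accessibility in cells given vehicle for 2 h was compared with that in cells given TGFβ1 for 2 h, the early time of a study of how TGFβ changes the accessible genome of epithelial cells. The assay was ATAC-seq, in which the transposase Tn5 cuts and tags DNA where chromatin is open. The cells were NMuMG, a line of epithelial cells from the normal mouse mammary gland, grown with 10% serum and insulin. Before they were confluent, they were kept in medium without serum and insulin for 6 h. One group then received vehicle, the albumin solution in which the ligand is dissolved, and the other received TGFβ1 at 5 ng/ml, both for 2 h. The labels name the acid as Tris-HCl in one field and as plain HCl in another. Each group had 2 biological replicates, so 4 of the 6 samples of the series were used. The authors made 1 list of reproducible peaks from the 2 replicates of each group, which leaves 1 list for vehicle and 1 for TGFβ and no spread between replicates. No test between the groups could be run, and intervals given with shares are 95% Wilson intervals that cover counting error over regions, which are not independent of each other. The lists hold no read counts, so the number of reads behind each region is not known here.

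Regions were made from the distinct intervals of each list that measured at least 150 bp, after intervals closer than 1000 bp were merged. Both lists together held 33129 regions, of the 39435 of the whole series. The TGFβ list held 32548 regions, of which 16048 overlapped a vehicle region by at least 1 bp and are called shared, and 16500 (50.7%) did not and are called regions of the 2 h list alone. The vehicle list held 16765 regions, of which 662 (3.95%) had no counterpart at 2 h and are called regions of the vehicle list alone. These names describe presence in a list: a region can be missing because its signal stayed under the threshold of the authors. With the 2 h list shortened to its widest intervals, as many as the vehicle list holds, the counts of the single-list classes were 5374 and 4240. In the read counts that the study states, the deeper pair of libraries depended on the count used. The 2 h pair had slightly more total reads, and the vehicle pair had more mapped and filtered reads. The part of library depth and quality in the counts of regions was not tested.

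TGFβ binds paired serine/threonine kinase receptors at the cell surface, which phosphorylate the transcription factors SMAD2 and SMAD3. With SMAD4 these enter the nucleus and act at enhancers, usually beside other factors such as AP-1, the dimers of Jun and Fos proteins. Parallel branches run through MAP kinases. In mammary epithelial cells TGFβ halts proliferation and starts the epithelial to mesenchymal transition (EMT), in which junction and keratin genes give way to genes of matrix, adhesion and the actin cytoskeleton.

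The lists were first checked against the labelled cell type. A promoter was taken as covered when a region overlapped the 500 bp to either side of the 5′ end of any protein-coding transcript of the gene, as was the case for 40.5% of 22342 protein-coding genes in both lists and for 1296 (5.8%) in the 2 h list alone. Of 9 epithelial markers, 3 keratin genes (Krt8, Krt18 and Krt19) had a covered promoter in both lists, Cdh1 and Cldn4 had one in the 2 h list alone, and 4 (Epcam, Cldn7, Esrp1 and Grhl2) had one in neither. No promoter was covered in either list among 5 immune, 5 endothelial, 5 neuronal, 4 adipocyte and 4 muscle markers. Of 7 fibroblast markers, Pdgfra was covered in both lists and Col1a1 in the 2 h list alone. Promoter coverage in both lists was thus found at keratin genes and at the fibroblast marker Pdgfra. It was found at none of the blood, vessel, nerve, fat or muscle markers. Several genes that define epithelium had no covered promoter, as was the case for 53.5% of all protein-coding genes.

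What a region of the 2 h list alone looks like in sequence is shown for 4 genes, a signal carrier, an integrin, a cytokine and a receptor, at the region nearest their 5′ end that lay more than 1000 bp from any start site and outside exons. Sequences are from the NCBIM37 (mm9) genome, plus strand, at most the central 300 bases of the region, with matches to the AP-1 motif TGANTCA in capitals. The Smad3 region, chr9:63609243-63609512, lay 3442 bp upstream of the gene in intergenic DNA. The Itga2 region, chr13:115725716-115726098, lay 3467 bp upstream of the gene and is shown from 115725757 to 115726056. The Lif region, chr11:4158890-4159066, lay in an intron of Lif, 1330 bp from its 5′ end. The Acvr1 region, chr2:58417733-58417960, lay in an intron of Acvr1, 1608 bp from its 5′ end.
Smad3: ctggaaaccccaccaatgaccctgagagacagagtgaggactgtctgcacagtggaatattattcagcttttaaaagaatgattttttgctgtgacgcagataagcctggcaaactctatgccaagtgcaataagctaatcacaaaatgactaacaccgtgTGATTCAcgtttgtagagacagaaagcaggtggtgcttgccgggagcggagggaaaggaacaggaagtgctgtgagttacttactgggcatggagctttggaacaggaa
Itga2: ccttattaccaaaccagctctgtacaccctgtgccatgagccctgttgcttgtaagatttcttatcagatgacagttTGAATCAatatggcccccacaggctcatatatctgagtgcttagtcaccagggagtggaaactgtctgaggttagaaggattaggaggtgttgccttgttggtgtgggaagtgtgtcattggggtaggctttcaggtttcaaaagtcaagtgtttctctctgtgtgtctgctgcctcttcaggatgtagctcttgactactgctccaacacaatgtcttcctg
Lif: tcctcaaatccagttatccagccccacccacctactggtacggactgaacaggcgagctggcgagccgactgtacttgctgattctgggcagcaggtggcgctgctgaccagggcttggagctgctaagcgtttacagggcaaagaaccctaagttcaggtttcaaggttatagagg
Acvr1: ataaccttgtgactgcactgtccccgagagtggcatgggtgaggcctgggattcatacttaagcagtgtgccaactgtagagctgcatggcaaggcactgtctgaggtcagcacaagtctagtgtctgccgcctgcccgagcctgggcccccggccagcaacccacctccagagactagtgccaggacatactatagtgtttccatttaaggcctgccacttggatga
The Smad3 and Itga2 sequences held 1 AP-1 match each, while those at Lif and Acvr1 held none, and the SMAD palindrome GTCTAGAC was in none of them. Over the 8 regions chosen by the same rule, the other 4 being at Dusp5, Id3, Id1 and Tnnt2, 3 held an AP-1 match. The GC content of the 4 stretches was 46.3% at Smad3, 46.7% at Itga2, 55.4% at Lif and 56.1% at Acvr1.

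The genomic position of the 3 classes of regions differed. Of the regions of the 2 h list alone, 12.2% lay within 1000 bp of a transcript start site (11.7 to 12.7), against 55.2% of the shared regions (54.4 to 55.9) and 15.7% of the regions of the vehicle list alone (13.1 to 18.7). Introns and intergenic DNA took up the difference. Of the regions of the 2 h list alone, 15.5% of the regions of the 2 h list alone were centred in an intron next to the 5′ end of a protein-coding transcript and 24.5% in later introns or other gene bodies, against 8.33% and 11.6% of the shared regions. A further 45.4% were intergenic, against 23.6% of the shared regions. As a level to read these against, 500-bp windows placed every 10 kb over the genome lay within 1000 bp of a start site in 5.03% of cases, in such an intron next to the 5′ end in 10.7%, in later introns in 24.5% and between genes in 57.4%. Introns next to the 5′ end thus held a larger share of the regions of the 2 h list alone than of these windows, and later introns held the same share. Coding exons held 0.739% of the regions of the 2 h list alone, against 1.01% of the windows.

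**Figure D1:**
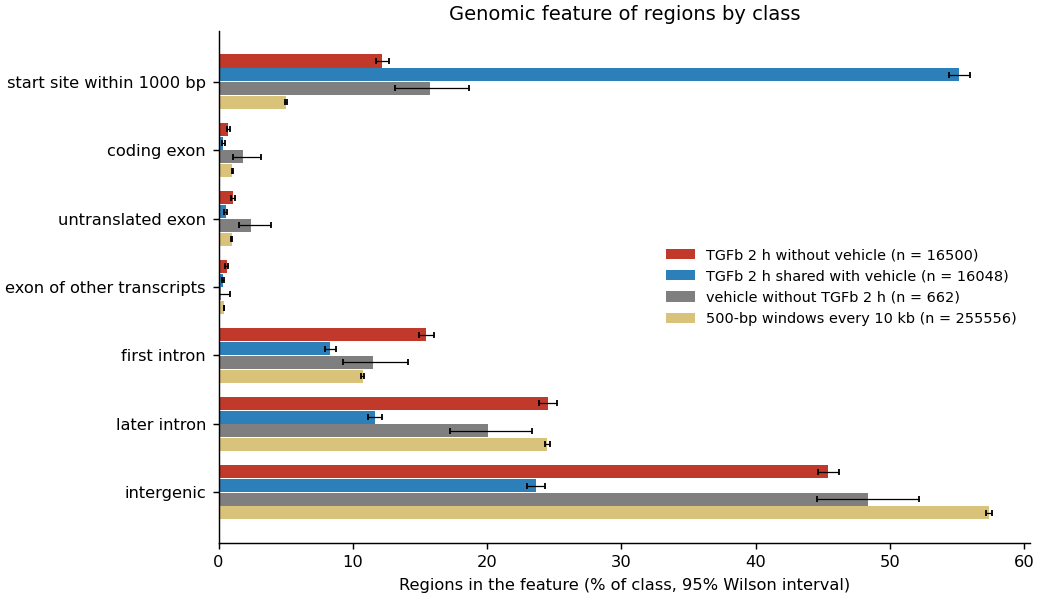
Share of regions in each genomic feature, for the 3 classes of regions and for windows spread over the genome, in percent of the class; bars end in 95% Wilson intervals. Start sites held 55.2% of the shared regions and 12.2% of those of the 2 h list alone, which were more often intronic and intergenic.

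Most regions of the 2 h list alone lay at some distance from genes' 5′ ends without being remote from them. Their distance to the nearest start site was over 5 and up to 20 kb for 30.7%, over 1 and up to 5 kb for 15.1%, and over 100 kb for 9.07%, against 22.0% of the genome windows. They also lay near regions that vehicle cells already had. The median distance to the nearest vehicle region was 26081.5 bp, and 25.8% had one within 10 kb and 67.7% within 50 kb. The genome windows had a vehicle region at a median distance of 115265 bp, and the shared regions had another vehicle region at 20802.5 bp. The spacing of the regions of the 2 h list alone was thus nearer to that among the regions of vehicle cells than to that of the windows. Of the 100-kb bins of the genome, 9231 held at least 1 region of the 2 h list alone, and 3702 of these held no vehicle region. The densest bin, on chromosome 5 at Htra3, a secreted protease, and Sh3tc1, had 10 regions at 2 h, 9 of them in that list alone. Bins at Slc22a23 and at Nfatc2 with Atp9a each had 8 regions at 2 h and no vehicle region. Bins and their genes were picked by these counts, which therefore describe them.

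The classes differed in composition as well. The bases up to 150 bp to either side of the centre of the regions of the 2 h list alone had a median GC content of 47.8%, against 57.5% for shared regions and 41.5% for genome windows. This went with position: among regions over 1000 bp from a start site (called distal) the medians were 47.2% and 48.8%. At start sites, 43.5% of the regions of the 2 h list alone had an observed to expected CpG ratio over 0.6, the usual mark of a CpG island, against 81.7% of the shared regions. Start site regions of the 2 h list alone were therefore less often of the CpG island kind than shared ones. A start site lay inside 1378 of 2013 start site regions of the 2 h list alone and inside 8462 of 8855 shared ones. The rest lay up to 1000 bp from one, and the part of this in the CpG shares was not tested.

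Motifs were counted as exact matches on either strand in the same bases, a count that describes letters and not binding. AP-1 was matched in 48.2% of the distal regions of the 2 h list alone (6980 of 14487) and in 44.3% of the distal shared regions (3189 of 7193), against 8.86% of windows 5 kb to either side of the former and 34.1% of all 2 h regions. The order of the first 2 shares is not stable, since it turned when the 2 h list was shortened to its widest intervals (46.9% and 47.9%). Among distal regions of like width, at least 300 and under 600 bp, the shares were 56.3% and 51.6%. In both classes matches were densest at the centre. In regions of the 2 h list alone there were 2.83 matches per 1000 regions and bp within 50 bp of the centre and 0.534 at 200 to 250 bp, and in shared regions 2.32 and 0.688. The SMAD palindrome was rare, with 141 of 14487 distal regions of the 2 h list alone (0.973%, 0.826 to 1.15) against 31 of 7193 shared ones (0.431%, 0.304 to 0.611) and 0.596% of all 2 h regions, so that the intervals did not meet. TEAD (GGAATGT), the partner of the Hippo effector YAP, and RUNX (TGTGGTT) were each found at like shares in both classes, 7.87% and 7.49% for TEAD and 12.8% and 12.6% for RUNX, with 4.17% and 7.63% in the flanks and 6.09% and 9.67% over all 2 h regions. The GC box GGGCGGG bound by SP and KLF factors was in 3.53% of the distal regions of the 2 h list alone and in 7.33% of the shared ones, and in 17.0% of all 2 h regions.

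At start sites the contrast in motifs was larger. AP-1 was matched in 21.7% of 2013 start site regions of the 2 h list alone and in 5.50% of 8855 shared ones. The GC box went the other way, at 26.4% and 44.8%, and so did the ETS motif CCGGAAGT, at 2.38% and 6.98%, with 2.42% over all 2 h regions. Start site regions of the 2 h list alone thus had AP-1 matches more often, and GC box and ETS matches less often, than shared ones. GC content, CpG ratio and the share of regions with a start site inside differ between these groups, as given above. Their part in the motif shares was not tested.

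Genes were then ranked by the number of regions of the 2 h list alone nearest to them. Each 2 h region was given to the nearest 5′ end of a protein-coding transcript within 100 kb. Of the 28638 regions so placed, 13661 were of the 2 h list alone. The genes named were picked by their number of such regions, which therefore describes them. Of 13081 genes with at least 1 region, 7483 had 1 or more of the 2 h list alone, 345 had 5 or more and 16 had 10 or more. Pde4d, a phosphodiesterase that degrades cyclic AMP, led with 25 of its 34 regions, against 9 vehicle regions. Akap13, an anchoring protein for protein kinase A, had 14 of 18, and Lpp, a protein of focal adhesions, also had 14 of 18. Kirrel3, an adhesion molecule of the immunoglobulin family, had 14 of 15 and a single vehicle region. Ltbp1, which binds latent TGFβ in the matrix, and Mbnl1, a regulator of splicing, each had 12 of 15. Sept9, a septin of the cytoskeleton, had 12 of 13, and Sgms1, a sphingomyelin synthase, had 12 of 20. Kalrn, a guanine nucleotide exchange factor, had 11 of 13, and Nck2, an adaptor between receptors and actin, had 11 of 12. These genes are long, from 125 kb for Nck2 to 1299 kb for Pde4d, and long genes offer more room for regions, so the counts are not corrected for length.

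Genes of the TGFβ pathway and of EMT were then read from lists of known members. For each list the 2 h regions within 100 kb of the members' 5′ ends were counted, and the share of the 2 h list alone was set beside the 47.1% (13021 of 27674) found around all protein-coding genes. The list of 16 ligands and receptors of the TGFβ family also includes Ltbp1 and Ltbp2, which are neither. For this list the share was 46 of 100 regions (46.0%, 36.6 to 55.7), near that background. Eng, the co-receptor endoglin, had 10 of 16 regions in the 2 h list alone without a covered promoter. Acvr1, a type I receptor, had 7 of 12, and Acvr1b, the activin receptor ALK4, had 5 of 16. At Ltbp1 all 4 regions within 100 kb of the 5′ end were of the 2 h list alone, including 1671 bp over the 5′ end itself (chr17:75404293-75405963), while another of its promoters was covered in both lists. The ligand gene Tgfb1 had 4 of 12, and its promoter was covered by a region of 990 bp at 2 h (chr7:26471726-26472715) and by none in vehicle. Ltbp2 and the BMP receptor genes Bmpr1a and Bmpr2 also had a promoter covered at 2 h alone. In all, 9 of the 16 genes had a promoter in both lists, 4 in the 2 h list alone and 3 in neither. Over all protein-coding genes the shares were 40.5%, 5.8% and 53.5%.

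Among 18 Smads and feedback regulators the share was 52 of 114 regions (45.6%). In both lists were 15 of the 18 promoters, beside 40.5% of all protein-coding genes. Smad3 had 8 of 15 regions in the 2 h list alone. Ski, a repressor of SMAD complexes, had 7 of 14, and its relative Skil had 3 of 10. Smad7, the inhibitory Smad that TGFβ induces as feedback, had 6 of 12, the nearest of them 4053 bp from the 5′ end, and its promoter region measured 1019 bp in vehicle and 1546 bp at 2 h. Pmepa1, another feedback gene that removes receptors and Smads, had 5 of 10, and its promoter region was 350 bp wide in vehicle and 2413 bp at 2 h, merged from 2 intervals. Zfyve9, which presents Smads to the receptor, had the only promoter of this list covered at 2 h alone, beside 5.8% of all protein-coding genes.

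The AP-1 family had 59 of 141 regions in the 2 h list alone (41.8%, 34.0 to 50.1). Of its 16 promoters 13 were in both lists, beside 40.5% of all protein-coding genes. Fos and Fosb had 8 each, of 11 and 21 regions, Jund had 6 of 19, Batf3 had 5 of 8, Fosl2 had 5 of 7 and Jun had 4 of 9. Junb, with 13 regions, had 2. Promoter regions of these genes were wide in vehicle already, 2865 bp at Junb and 2060 bp at Jun, and measured 3320 bp and 1920 bp at 2 h. The promoter region of Fos measured 793 bp in vehicle and 2400 bp at 2 h. The Fos regions did not match 1 to 1, so a part can be set against a joined whole. The part of joining was not tested. MAP kinase feedback and immediate early genes had the lowest share of the lists, 74 of 192 regions (38.5%, 31.9 to 45.6). Of their 24 promoters 22 were in both lists, beside the same 40.5% of all genes. Dusp5, a phosphatase of ERK, had 8 of 10 regions, and its promoter region was 1263 bp in vehicle and 1281 bp at 2 h. Ier2 had 6 of 10, Ier3 6 of 20 and Dusp6 5 of 8.

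For EMT and Id transcription factors the share was 47 of 93 (50.5%, 40.6 to 60.5). Id3, an inhibitor of helix-loop-helix factors and a classical target of BMP and TGFβ signals, had 10 of 13 regions in the 2 h list alone, and its relative Id1 had 6 of 13. Snai1, the EMT factor that represses Cdh1, had 8 of 15, one of them 1205 bp wide at chr2:167368599-167369803 and 4904 bp from the 5′ end, while its promoter region measured 749 bp in vehicle and 671 bp at 2 h. Tcf3 had 4 of 9. No promoter of this list was covered at 2 h alone, beside 5.8% of all protein-coding genes. Epithelial genes had 119 of 277 (43.0%, 37.3 to 48.8). Krt7 had 10 of 14, Cldn3 8 of 14 and Cdh1, the gene of E-cadherin, 8 of 14. The desmosome gene Pkp1 had 9 of 14 and a promoter region of 377 bp at 2 h alone. Promoters of Cdh1, Cldn4 and Ehf were likewise covered at 2 h alone. Of the 35 epithelial promoters, 14 were in both lists, these 4 in the 2 h list alone and 17 in neither. Over all protein-coding genes the shares were 40.5%, 5.8% and 53.5%.

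Mesenchymal and matrix genes had 88 of 182 (48.4%, 41.2 to 55.6). Of their 28 promoters, 6 were covered at 2 h alone and 7 in both lists, where 5.8% and 40.5% of all protein-coding genes were. The 6 were S100a4, Col4a1, Col4a2, Timp3, Timp1 and Col1a1. Col4a1 and Col4a2, the collagens of basement membrane, share 1 start region of 1220 bp and so count as a single observation. Cnn2 had 7 of 16 regions in the 2 h list alone, Cyr61 7 of 13 and S100a4 7 of 17. Genes of actin and integrins had 135 of 260 (51.9%, 45.9 to 57.9). Myh9, non-muscle myosin, had 12 of 20, the crosslinker Actn1 9 of 10, Itgb6, an integrin that activates latent TGFβ, 9 of 14, and the collagen receptor Itga2 8 of 12.

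Growth factors and cytokines had 81 of 159 (50.9%, 43.2 to 58.6), and 6 of 23 promoters in the 2 h list alone, beside the 5.8% of all protein-coding genes. Csf1, the growth factor of macrophages, had 12 of 14 regions in the 2 h list alone and 2 vehicle regions. Lif had 10 of 12, including a region of 364 bp within its promoter window. Pdgfb had 10 of 16, and its promoter was covered by a region of 2774 bp at 2 h alone, which overlapped a vehicle region outside the promoter window. Fgf1 had 6 of 8. Hippo pathway genes had 44 of 91 (48.4%), with 8 of 12 at Tead3 and 6 of 7 at Amotl1. Cell cycle inhibitors had 45 of 93 (48.4%), with 10 of 16 at Gadd45a and 8 of 12 at Cdkn1b. Ribosomal protein genes, listed as genes without a known link to TGFβ, had 89 of 211 (42.2%, 35.7 to 48.9), with 9 of 15 at Rpl18. The loci used as examples by the study had 24 of 45 (53.3%, 39.1 to 67.1), with 13 of 20 at Tnnt2, 10 of 18 at its neighbour Lad1, 4 of 9 at Amigo1 and 3 of 9 at Arid5a. Of the 13 lists, 12 had an interval that held the background of 47.1%. The exception was MAP kinase feedback and immediate early genes, whose upper bound was 45.6%. No list had a promoter in the vehicle list alone, which over all genes was the case for 0.219%.

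**Figure D2:**
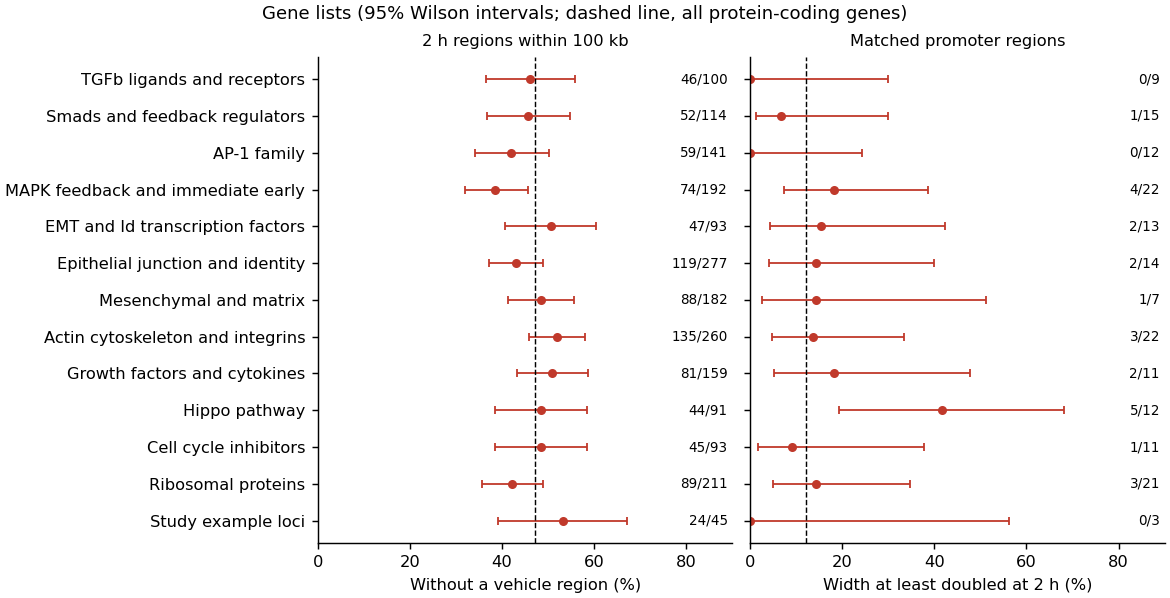
Left, percent of the 2 h regions within 100 kb of listed genes that had no vehicle region; right, percent of listed genes whose matched promoter region at least doubled in width at 2 h, with counts at the right edge, 95% Wilson intervals and dashed lines at the value for all protein-coding genes (47.1% and 12.1%). Most lists lay on the left line, and Hippo genes lay farthest from the right one, with 5 of 12.

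**Figure D3:**
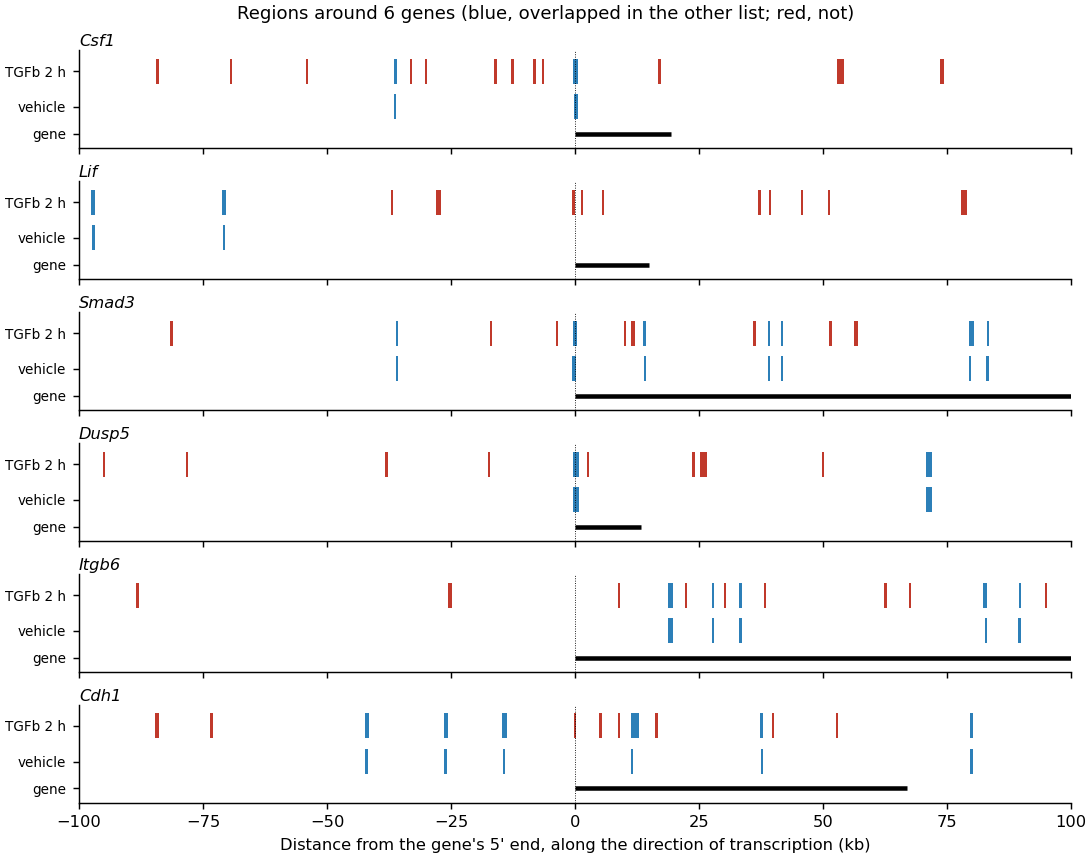
Regions of the vehicle and TGFβ lists at 6 genes, by distance in kb from the 5′ end along the direction of transcription; blue regions overlap the other list, red ones do not, and black bars are gene bodies. Csf1 had 12 red regions of 14 at 2 h, spread over both sides of the gene, and Cdh1 and Lif had a red region at or beside the 5′ end.

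Promoters found in a single list were described over all genes. In the 2 h list alone there were 1296 of 22342 (5.8%), with a median region width of 664 bp against 971 bp for promoters in both lists, and for 1208 of them the region was itself of the 2 h list alone. At the others the region reached a vehicle region beside the promoter window. The widest was at Cdk2ap1, an inhibitor of the kinase CDK2, with 3565 bp merged from 4 intervals (chr5:124801203-124804767). Efcab4a followed with 3091 bp, Arhgef40 with 3070 bp, Ninj2, an adhesion gene, with 3053 bp, the chaperone partner Bag2 with 2936 bp, Pcolce2, which promotes collagen processing, with 2859 bp, Sh3pxd2b, a scaffold of podosomes, with 2799 bp, Svil, which links actin to the membrane, with 2781 bp, Pdgfb with 2774 bp and the histone gene Hist1h2ab with 2749 bp. All 10 were merged from 2 or more intervals. At Efcab4a, Arhgef40, Ninj2, Sh3pxd2b, Pdgfb and Hist1h2ab the region overlapped a vehicle region that lay outside the promoter window. The regions at Arhgef40 and Hist1h2ab appear again below among the matched regions that widened, the latter under Hist1h3b. In the vehicle list alone there were 49 promoters (0.219%), and with the shortened 2 h list 832, beside 795 in the 2 h list alone. The widest regions were at Ehbp1, an endocytic protein, with 1638 bp, Tmem181b-ps with 1192 bp, Nek6, a mitotic kinase, with 1128 bp, 1110012D08Rik with 1091 bp, the olfactory receptor gene Olfr288 with 889 bp, the chemokine gene Cxcl5 with 866 bp, the DNA methyltransferase gene Dnmt3b with 865 bp, Zdhhc7 with 773 bp, Dhrs3, a retinal reductase, with 735 bp, and Ttc15 with 692 bp. At Ehbp1, Nek6 and 1110012D08Rik the vehicle region did overlap a 2 h region, which ended short of the promoter window.

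Regions in both lists were next compared by width, the one measure that both lists carry. Of 15960 pairs, in which a vehicle region and a 2 h region overlapped only each other, 82.7% were wider at 2 h, by a median of 147 bp (quartiles 27 and 327), and 63 were equal. Both edges lay farther out at 2 h in 59.7% of them and farther in for 756 regions. The 2 h width was at least 2 times the vehicle width in 2611 regions (16.4%) and at most 50% of it in 59. Of the 13142 pairs made of a single interval in both lists, 82.1% were wider, by a median of 128 bp. The part of merging in the added width was not tested. Only 66 regions at 2 h joined 2 or more vehicle regions, 132 in all. With regions cut into 5 groups by vehicle width, the median difference was 223 bp in the narrowest group and 42 bp in the widest. Groups cut by the mean of both widths, which favours neither list, gave 85 bp in the narrowest and from 155 to 171 bp in the others. The order by vehicle width was thus mostly not seen by mean width, and vehicle width also enters the difference itself. By the deposited score of the vehicle list, regions at the maximum of 1000 were wider at 2 h in 79.2% of 8660 cases and those below it in 86.9% of 7300.

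**Figure D4:**
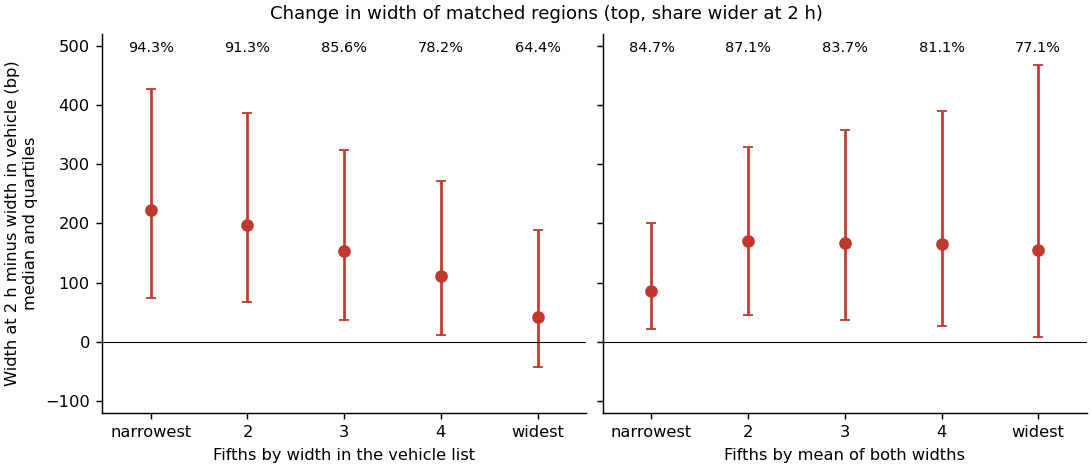
Width at 2 h minus width in vehicle, in bp, as median and quartiles for matched regions cut into 5 groups by vehicle width (left) and by the mean of both widths (right), with the percent wider at 2 h above each. On the left the median runs from 223 to 42 bp, and on the right it lies between 155 and 171 bp in all but the narrowest group.

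The largest excess of 2 h over vehicle width was at Capns1, the small subunit of calpain, from 286 to 2931 bp, at the histone gene Hist1h3b from 193 to 2749 bp, at Arhgef40 from 562 to 3070 bp, in intergenic DNA nearest Tmcc2 from 257 to 2658 bp and nearest Prps1l1 from 365 to 2734 bp. At all 5, 1 vehicle interval faced 3 or 4 intervals at 2 h. The opposite difference was largest at Dynlt1a, a dynein light chain, from 2517 to 393 bp, at 5730403B10Rik from 2310 to 750 bp, nearest Gm16372 from 1936 to 607 bp, at the TEAD cofactor gene Vgll4 from 1543 to 318 bp, and nearest the MHC class I gene H2-D1 from 1718 to 520 bp. There 2 vehicle intervals faced 1 interval at 2 h.

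At promoters that held start sites of a single strand, the added width lay more on the side of the gene. A pair was left out when its vehicle or 2 h region reached a start site of the other strand. That choice depends on the 2 h edges, and its part in the shifts was not tested. The distal regions used below as a reference were not chosen this way. For 6427 matched regions that held start sites of a single strand, the upstream edge lay farther out by a median of 19 bp (quartiles -1 and 115) and the downstream edge by 58 bp (2 and 219). The downstream shift was the larger one in 3868 of them (60.2%, 59.0 to 61.4) and the upstream shift in 2541. The median of the difference, downstream minus upstream, was 32 bp. As a reference with no direction of transcription, 7203 distal regions had left and right shifts with medians of 43 bp each, and the right one was larger in 49.5% (48.4 to 50.7). Edge shifts were not spread smoothly. The most common outward shift was under 50 bp, with 2609 upstream and 1720 downstream edges. From 100 to 150 bp there were 436 upstream and 416 downstream edges, from 150 to 200 bp there were more, 589 and 632. Downstream edges numbered 232 from 250 to 300 bp and 275 from 300 to 350 bp. The cause of these steps was not tested.

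**Figure D5:**
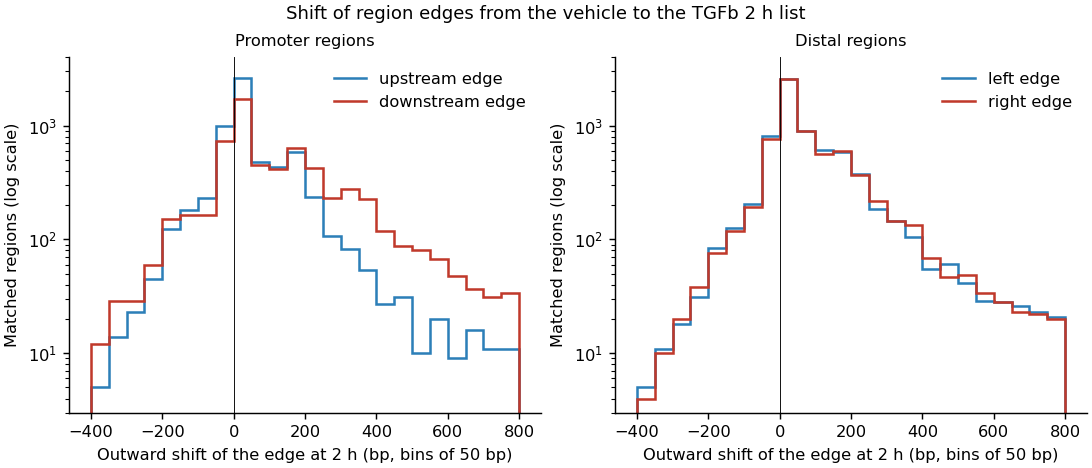
Number of matched regions (log scale) by outward shift of each edge from vehicle to 2 h, in bins of 50 bp, at promoters (left, relative to transcription) and at distal regions (right, by genome position). Promoter edges show a second peak at 150 to 200 bp and a longer downstream tail, and the left and right edges of distal regions lie on each other.

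Promoter widths of the listed genes were set against all 8966 gene symbols with a matched promoter region, of which 12.1% at least doubled in width, with a median log2 ratio of 0.24. All 12 Hippo pathway genes with a matched promoter were wider at 2 h, against 80.3% of all genes, with a median log2 ratio of 0.54. Width at least doubled at 5 of them (41.7%, 19.3 to 68.0): Lats2, the kinase that inactivates YAP, from 451 to 1082 bp, Nf2, its upstream activator, from 555 to 1275 bp, Tead4 from 585 to 1298 bp, Wwtr1, which encodes the YAP relative TAZ, from 796 to 1674 bp, and Amot from 767 to 1535 bp. These genes were named after their values were seen. Without merging 4 of 10 still doubled. Of the 22 MAP kinase feedback and immediate early genes 4 doubled, Egr2, Spred2, Errfi1 and Spry2, but none did without merging. The AP-1 family and the TGFβ ligands and receptors had 0 of 12 and 0 of 9, and their median log2 ratios were 0.11 and 0.22. Fos is not among these 12, since its promoter region was not part of a pair that overlapped only each other. Its widths, given above, are thus not of a matched pair. Over all matched regions, width at least doubled in 44.3% of the narrowest group by vehicle width and in 1.13% of the widest. Median vehicle width was 1440 bp for the AP-1 family, 752 bp for ligands and receptors, 827 bp for Hippo genes and 773 bp for all genes. The part of vehicle width in the shares that doubled was not tested.

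The 662 regions of the vehicle list alone were narrow and had low scores. Their median width was 275.5 bp, against 582 bp for vehicle regions with a 2 h counterpart. Their median score was 634.5, with 2.72% at 1000 against 54.1% of those with a counterpart. Regions of the 2 h list alone were also narrower than shared 2 h regions, with medians of 423 and 808.5 bp. Regions of the vehicle list alone made up 6.84% to 6.96% of the vehicle regions on chromosomes 15, 17 and 19. On the other chromosomes they made up 1.30% to 4.53%. The same 3 chromosomes were among those with a low share of 2 h regions without vehicle, 48.01%, 45.29% and 45.04%. The widest was an intergenic region of 3294 bp nearest Haus8 (chr8:73717344-73720637), merged from 4 intervals. The next ones were 2364 bp in an intron of Tmem181b-ps on chromosome 17, 2155 bp nearest the urate transporter gene Slc22a12, 2022 bp nearest Raet1d and 1757 bp in an intron of Cd244. Tmem181b-ps had the most, with 4 such regions. Distal regions of this class matched AP-1 in 13.3% (10.7 to 16.3), against 8.66% of their flanks. With the shortened 2 h list, which put 4240 regions in this class, the AP-1 share was 39.5%. They matched the consensus of CTCF, the insulator protein, in 89 of 558 cases (15.9%, 13.1 to 19.2), against 4.91% of the distal regions of the 2 h list alone, 3.27% of the shared ones and 3.25% of all 2 h regions. At a width of at least 300 and under 600 bp the CTCF shares were 7.26%, 2.62% and 3.79%, with 13 of 179 in the vehicle class (4.29 to 12.0).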

How the data were processed

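ATAC-seq was done by the study on the 4 samples used here, 2 of vehicle and 2 of TGFβ1 for 2 h, grouped by their labels. The authors aligned reads to mm9, called peaks with MACS2 2.1.2 per the submitters' processing notes, and kept peaks reproducible between replicates. The deposited lists place each peak by its chromosome and its 2 ends. The vehicle list also has a deposited score without a stated scale, used only to describe vehicle regions. The same column of the 2 h list numbers its lines and was not used.

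From the lists, distinct intervals of at least 150 bp were merged when closer than 1000 bp, and regions were called shared with an overlap of 1 bp. Start sites were the 86803 transcript 5′ ends of GENCODE vM1 on NCBIM37, and 22342 protein-coding genes were used. Genes named were those nearest the most regions of the 2 h list alone, those with the widest single-list promoters, the largest width changes and the leading members of each gene list, of which 1 is not reported here. The comparison, its members and the gene lists were chosen with earlier results of these data known. Ldlrad4, Ajuba, Kansl3 and Spi1 were listed but have no entry under these symbols in the annotation. Motifs were searched up to 150 bp from the centre. Simulated data were used to check the code, with 0 of 5252 interval comparisons and 0 of 4000 motif windows wrong. Python 3.11.15, numpy 2.4.6, pandas 2.3.3, scipy 1.17.1, pysam 0.24.0 and matplotlib 3.10.9 were used. Alternatives changed the minimum width, merging, overlap, list length, start sites, promoter window and motif window, one at a time.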

Additional observations from a re-analysis of the deposited data

How the results depend on the processing

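No paired analysis was possible because each group has 1 list made from both replicates, and for the same reason no replicate could be left out. The setting that moved most was the length of the 2 h list. The list was cut to its widest intervals, as many as the vehicle list holds. This left 5374 regions of the 2 h list alone and 4240 of the vehicle list alone. Promoters numbered 795 in the 2 h list alone and 832 in the vehicle list alone. The near absence of regions of the vehicle list alone was thus not seen with the shortened list. Dropping 2 h intervals can only raise the number of such regions, so the part of list length was not tested. With the shortened list, start site shares were 19.5% (2 h list alone), 63.0% (shared) and 24.9% (vehicle list alone). AP-1 shares were 46.9%, 47.9% and 39.5%, and 79.8% of matched regions were wider. A minimum width of 250 bp gave 438 regions of the vehicle list alone, start site shares of 14.4%, 57.9% and 21.0%, AP-1 shares of 51.8% and 46.2% for the 2 h list alone and shared regions, and 81.9% wider. Without merging, start site shares were 14.9% and 20.4% for the single-list classes of 2 h and vehicle, AP-1 shares 49.2% and 47.5%, 81.2% were wider, and 9.59% of promoter regions doubled, a value computed after seeing the data. A reciprocal overlap of 50% gave 3601 regions of the vehicle list alone. Start sites of protein-coding transcripts gave 9.09%, 52.3% and 11.3%, and a margin of 5 kb 27.3%, 63.5% and 34.3%. AP-1 windows of 250 bp to either side gave 55.5%, 53.7% and 18.3%. The other 16 values stayed within 1.5 times (counts) or within the interval of the value reported, and no direction reversed. With the shortened list 2 orders turned, that of the AP-1 shares of the 2 h list alone and shared regions, and that of the promoters in the 2 h list alone and in the vehicle list alone.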
